A study of Bos taurus with 20 samples.

Results

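The DEAD-box and DEAH-box RNA helicases were examined in bovine morulae as the probe sets annotated with a single gene symbol that starts with DDX or DHX and a digit, leaving out DDX3X and DDX3Y. The rule found 48 of the 26773 probe sets on the array, for 47 genes, since DDX19B has a pair of probe sets. Of these, 33 were DDX and 15 were DHX probe sets. A probe set annotated to both DHX32 and BCCIP was left out because it carries more than 1 symbol. Of the 47 symbols, 46 were matched to RefSeq (assembly ARS-UCD2.0) by gene identifier and DDX11 by symbol, and 0 of the genes lie on the X chromosome in that table.

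RNA helicases of these families share a core that binds RNA and ATP and separates short RNA duplexes or strips proteins from RNA. DEAD-box proteins pry open duplexes locally, while DEAH-box proteins move along a strand, and both kinds are often switched on by partner proteins. In the early embryo they are needed for splicing, ribosome production, mRNA export and the control of stored maternal transcripts, processes that supply the growing set of embryonic messages. In vertebrates, DDX4 (VASA) is the classical marker of the germ line.

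The study asked how embryo sex and Dickkopf-1 (DKK1), a secreted inhibitor of canonical WNT signalling, affect transcripts of the morula. RNA of 20 pooled morulae went on each array, with 5 arrays for each of female DKK1, female control, male DKK1 and male control. Embryos were produced in vitro with X-sorted (female) or Y-sorted (male) semen, so a pool can hold a minority of embryos of the other sex. DKK1 (human recombinant protein, 100 ng/ml) or vehicle (phosphate-buffered saline with bovine serum albumin) was added on Day 5 of development and morulae were harvested 24 h later, on Day 6. Compacted and non-compacted morulae were pooled together, and the RNA was amplified before labeling. In such pools, fewer cells of a type and less RNA per cell cannot be told apart, and P values measure the spread between the pools.

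Values are log2 intensities (a difference of 1 is a doubling), and a fold change is 2 raised to a difference. Probe sets with a mean of at least 5.5 over the 20 arrays were tested, 9842 in all. Of the helicases, 39 of 48 passed (27 DDX and 12 DHX). DDX31 lay just inside at 5.504 and DHX57 just outside at 5.37. The 9 below it were DHX57, DDX55, DHX58, DDX11, DHX34, DDX25, DDX43, DDX4 and 1 of the probe sets of DDX19B. The number of arrays limits the precision of every comparison.

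Male control replicate 2 stood apart from the other arrays. Its XIST signal was 8.81 and its DDX3Y signal 4.82, against 8.42 to 10.03 and 2.65 to 5.43 on the 10 female arrays and 6.30 to 8.22 and 6.29 to 8.36 on the other 9 male arrays. Markers of epiblast precursors (4 of 4 annotated genes) and trophectoderm (6 of 7) were mostly above the threshold, and those of hypoblast in part (2 of 5, GATA6 and PDGFRA). Markers of cumulus and granulosa cells (0 of 8), sperm (1 of 7, TNP2) and leukocytes (1 of 4, CD14) were mostly below it.

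The helicases were among the brighter of all probe sets on the array, of which 9842 of 26773 passed the threshold for testing. Their median percentile among all probe sets was 80.9. Of 48, 31 were above the 75th percentile and 13 above the 90th, while 4 were below the 50th. Among tested probe sets the gap was smaller. Medians on single arrays were 7.38 to 7.93 for the helicases and 7.06 to 7.40 for all tested probe sets. The order that follows is one of signal, because the intensities of different probe sets also depend on their probes and do not compare transcript numbers between genes. DDX5 (p68, a cofactor of transcription and of microRNA processing) was brightest, at 10.03 ± 0.20 in female DKK1, 10.07 ± 0.17 in female control, 10.08 ± 0.04 in male DKK1 and 9.96 ± 0.27 in male control embryos (SD, n = 5 each).

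DHX15, the homologue of yeast Prp43, which takes apart the spent spliceosome, came next with a mean of 9.78. It was followed by DDX1, a subunit of the tRNA ligase complex (9.50), and by DDX17, the paralogue of DDX5 (9.49). RNA helicase A (DHX9, 9.39), the splicing and export factor DDX39B (9.36) and its paralogue DDX39A (9.07) completed the 7 members with a mean of 9 or more. DDX46, the homologue of yeast Prp5 (8.98), and the nucleolar helicases DDX24 (8.78) and DDX21 (8.73) made up the rest of the first 10. DDX1 and DDX17, neighbours in this order, had means that differed only in the second decimal, while the smallest SD within groups of any tested member was 0.14, in DHX9.

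The order hardly differed between groups. The rank of a member moved by a median of 2 places over the 4 groups and by 3 places or fewer in 38 of 48, and the widest move was 6 places, for DDX41. Of the first 10 members, 8 were in the first 10 in every group. The plot of values by array shows members in this order.

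**Figure D1:**
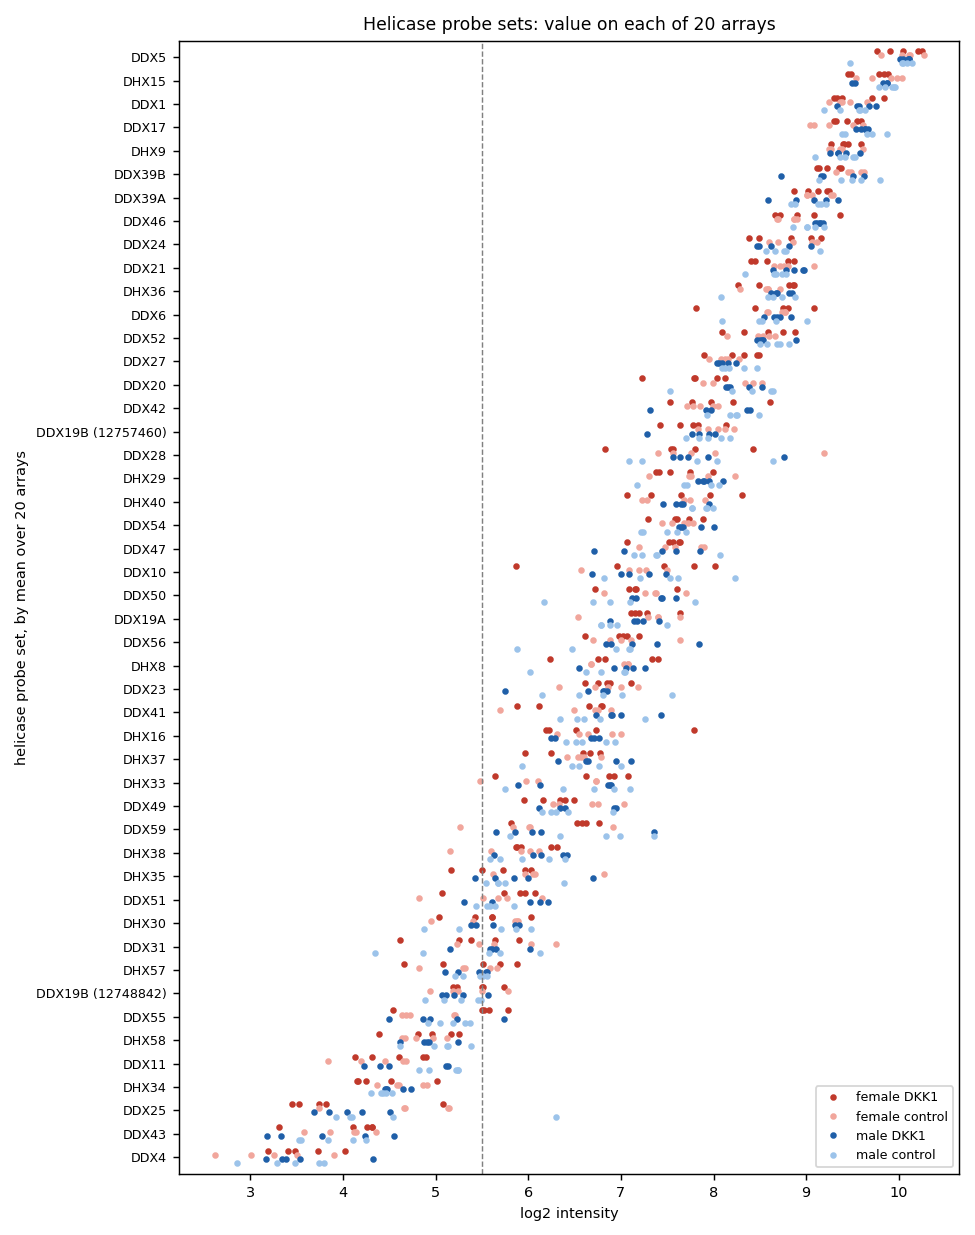
Log2 intensity of each of the 48 helicase probe sets (rows, ordered by mean over 20 arrays) on every array, 1 point per array, coloured by group. The dashed line is the threshold of 5.5 for testing, and the points run between 10.27 in DDX5 and 2.62 in DDX4.

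At the low end were the helicases of the germ line. DDX4 had values of 3.41, 3.48, 3.73, 3.19 and 4.03 in female DKK1 pools, 3.25, 3.51, 3.01, 2.62 and 3.90 in female control pools, 3.17, 4.32, 3.34, 3.53 and 3.39 in male DKK1 pools and 3.79, 3.48, 2.86, 3.29 and 3.74 in male control pools. The 4 groups overlapped throughout. DDX43, a helicase known mainly from testis, averaged 3.94, and DDX25, a testis helicase of mRNA export and translation, averaged 4.31. Of the 16 annotated germ line partners of DDX4 on the array, 3 probe sets were above the threshold, against 9842 of all 26773. They were GTSF1, which was bright (mean 9.98), MAEL (6.67) and ASZ1 (6.60). The RNA sensing member DHX58 (LGP2) averaged 4.93 and the DNA helicase DDX11 averaged 4.67. DHX34, a factor of nonsense-mediated decay, was at 4.52.

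The spread between pools of a group was smaller in brighter members. The median SD within groups was 0.19 in the 7 members with a mean over 9, 0.22 in the 9 between 8 and 9, 0.31 in the 9 between 7 and 8, 0.39 in the 9 between 6 and 7 and 0.38 in the 5 below 6. The same medians over all tested probe sets were 0.23, 0.32, 0.40, 0.44 and 0.42 in the same order of levels. Among tested members the SD was under 0.2 in 9 and over 0.5 in 5, and it was largest, 0.61, in DDX28, a helicase of mitochondrial ribosome assembly.

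No helicase passed the adjusted threshold for DKK1. The main effect (mean of both DKK1 groups minus mean of both control groups) lay between -0.25 and 0.22 in the 39 tested members, with a median of 0.01 against 0.03 over all tested probe sets. In limma, 0 of 39 had an adjusted P under 0.05 (smallest adjusted P = 1.00) and 1 had an unadjusted P under 0.05, against 0% and 3.61% of all tested probe sets (2.36% higher and 1.25% lower with DKK1). The unmoderated linear model gave 2 members at an unadjusted P under 0.05. The difference was above 0 in 21 members, or 53.8%, against 58.6% of all tested probe sets. This sign count depended on the scaling and on single arrays. It was 14 of 39 above 0 after centring arrays on their median and 15 after quantile normalization of the tested probe sets. It was 16 without male control replicate 2 and 25 without female DKK1 replicate 2. The median over all tested probe sets also moved, to -0.0095 and -0.002 with these scalings and to 0.009 and 0.040 without these arrays. Over all tested probe sets the calls at an unadjusted P under 0.05 were 232 higher and 123 lower with DKK1 as deposited, 141 and 194 after centring, and 155 and 173 after quantile normalization.

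The intervals bound how large an effect the arrays could have missed. The 95% interval of the DKK1 effect stayed within 1.5-fold either way in 36 of 39 members and within 1 on the log2 scale in all 39. The 3 exceptions to the 1.5-fold limit were DDX28 (-0.63 to 0.44), DDX10 (-0.62 to 0.35) and DHX33 (-0.28 to 0.66), which were among the members with the largest spread. The narrowest interval was that of DHX9 (-0.14 to 0.20).

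Of the 10 spliceosomal helicases, all tested, 4 were above 0 and 6 below 0 for DKK1, and 1 had an unadjusted P under 0.05. That member was DDX39B, also called UAP56, which acts in early spliceosome assembly and hands mRNA to the export machinery. Its values were 9.11, 9.14, 9.23, 9.35 and 9.37 in female DKK1 pools, against 9.48, 9.59, 9.63, 9.45 and 9.33 in female control pools. In males they were 9.19, 9.51, 9.16, 8.73 and 9.63 in DKK1 pools, against 9.50, 9.14, 9.37, 9.80 and 9.59 in control pools.

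In females a single control pool of DDX39B fell among the DKK1 pools, while in males the groups overlapped widely. The mean difference was -0.25 (SE 0.111, 0.843-fold, adjusted P = 1.00), with -0.26 in females and -0.24 in males. The unadjusted P was under 0.05 in 9 of the 20 fits that each left out 1 array, without male control replicate 2 included (-0.29) and without female DKK1 replicate 2 not (-0.23). It was over 0.05 with replicate number as a fixed block. The paralogue DDX39A, an export helicase of closely related sequence, differed by -0.02 (95% interval -0.23 to 0.19). Probes shared between such paralogues were not examined here, so their separate signals are uncertain.

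DHX15 had the third smallest P for DKK1 among the tested members. Its values were 9.88, 9.48, 9.79, 9.46 and 9.84 in female DKK1 and 9.92, 9.98, 10.03, 9.71 and 9.54 in female control embryos, and 9.87, 9.53, 9.83, 9.87 and 9.50 in male DKK1 and 9.94, 9.78, 9.85, 9.92 and 9.96 in male control embryos. The groups overlapped in both sexes. The difference was -0.16 (SE 0.0930, adjusted P = 1.00). The other spliceosomal members spanned -0.16 in DHX35 to 0.22 in DHX38, the homologue of yeast Prp16.

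**Figure D2:**
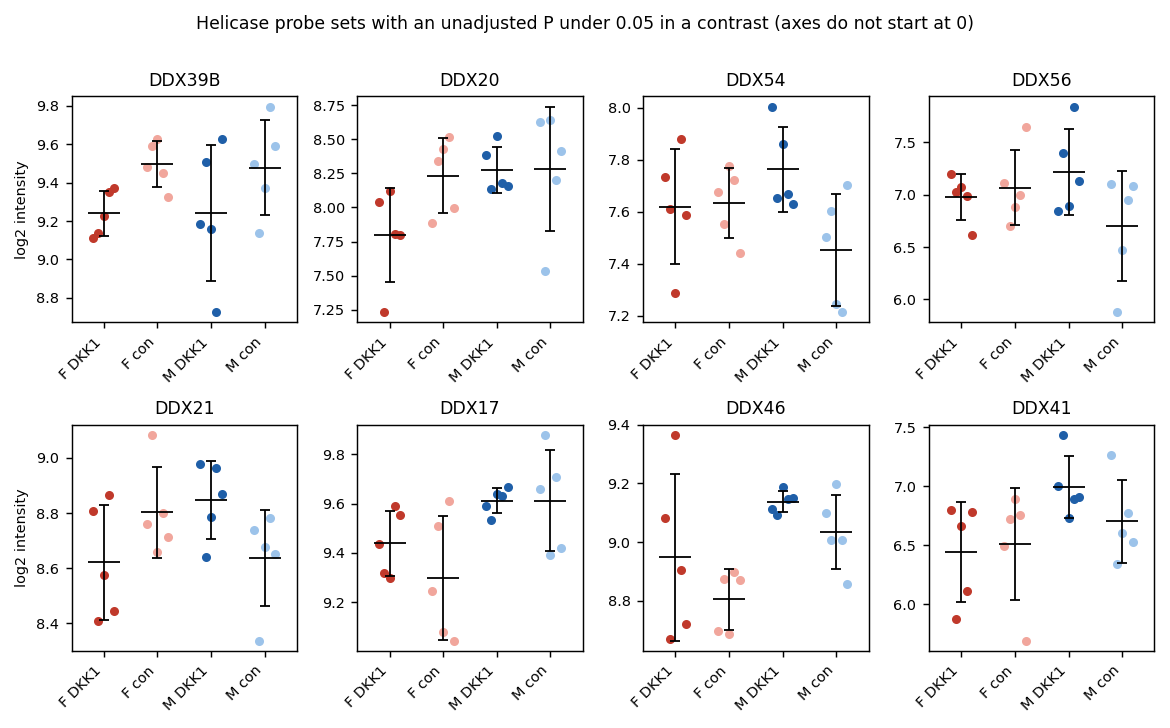
Log2 intensity on each array of the 8 helicases with an unadjusted P under 0.05 in a contrast, with female DKK1 (F DKK1), female control (F con), male DKK1 (M DKK1) and male control (M con) pools along the x axis. Bars are the mean ± SD of 5 arrays and the y axes do not start at 0. The panels were chosen for their P values, and the groups overlap in each within-sex comparison of DKK1.

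Of the 4 probe sets of mRNA export helicases, 3 were tested. DDX19B, the homologue of yeast Dbp5, remodels mRNA-protein complexes at the nuclear pore. Its brighter probe set had the second smallest P for DKK1 among the tested members. Its values were 8.14, 7.42, 7.78, 7.84 and 7.64 in female DKK1 and 8.05, 8.22, 8.12, 7.95 and 7.84 in female control embryos. In males they were 7.77, 7.28, 8.02, 7.85 and 7.95 with DKK1 and 8.08, 7.70, 8.18, 7.94 and 7.85 without. The groups overlapped in both sexes. Replicate 2 was lowest in both DKK1 groups and in male control, and highest in female control. The difference was -0.22 (SE 0.111, adjusted P = 1.00). The fainter probe set of the same gene, below the threshold at 5.31, differed by 0.06 (95% interval -0.18 to 0.30), and the paralogue DDX19A by 0.10 (-0.17 to 0.38).

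The ribosome biogenesis helicases were the largest role group, with 15 members and 14 tested. They act on pre-ribosomal RNA in the nucleolus. For the main effect of DKK1, 8 were above 0 and 6 below 0, 0 had an unadjusted P under 0.05, and the range was -0.14 in DDX10 to 0.22 in DDX56. After centring, 5 of 14 were above 0, and without female DKK1 replicate 2, 10 of 14 were. As deposited, 58.6% of all tested probe sets were above 0, and 3.61% had an unadjusted P under 0.05.

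The 5 members of nuclear RNA processing (DDX1, DDX5, DDX17, DDX20 and DHX9) lay between -0.22 and 0.10 for DKK1. The lowest was DDX20 (Gemin3), a subunit of the SMN complex that assembles spliceosomal snRNPs. The 3 tested members of translation and decay lay between 0.01 and 0.13. They were DDX6, which represses mRNA and promotes its decapping in P-bodies, DHX29, which helps the small ribosomal subunit scan structured leaders, and DHX36, which unwinds G-quadruplexes. The mitochondrial members DDX28 and DHX30 were at -0.09 and 0.02.

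Below the threshold, a fit of all probe sets gave DDX25 a difference of -0.64 for DKK1 (SE 0.283, adjusted P = 1.00). Its values were 3.45, 3.74, 3.52, 5.08 and 3.82 in female DKK1 and 5.13, 4.66, 4.67, 5.14 and 3.74 in female control pools, and 3.69, 4.20, 4.50, 3.85 and 4.05 in male DKK1 and 4.10, 4.08, 3.93, 6.30 and 4.54 in male control pools. The groups overlapped in both sexes, and single pools in female DKK1 and male control lay far above their groups.

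The partner genes gave no adjusted call for DKK1 either. Of all tested probe sets, 3.61% had an unadjusted P under 0.05 for DKK1. Of helicases with other names, 14 were tested and 1 had an unadjusted P under 0.05, MOV10, an RNA helicase of microRNA-guided silencing (0.27, SE 0.0994). The translation initiation helicase EIF4A1 (mean 10.99) differed by 0.05 and EIF4A3, of the exon junction complex (9.74), by 0.09. Of 20 tested G-patch proteins, which switch on DEAH-box helicases, and 16 export and exon junction partners, 0 had an unadjusted P under 0.05. Of 11 P-body partners of DDX6, the exonuclease XRN1 did (0.31, SE 0.141).

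Of 22 processome and nucleolar partners, 4 did, against 3.61% of all tested probe sets, with IMP4 (0.32) and WDR43 (0.20) higher and NOL11 (-0.31) and UTP14A (-0.34) lower with DKK1. Their adjusted P values were 1.00. The 3 tested germ line partners and the 4 tested RNA sensing partners included 0 with an unadjusted P under 0.05.

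Within each sex, no helicase passed the adjusted threshold and the DKK1 and control pools overlapped in every tested member. In females, 1 of 39 members had an unadjusted P under 0.05 in limma, against 4.13% of all tested probe sets (2.51% higher and 1.62% lower), and in males 2 of 39, against 4.28% (2.96% higher and 1.32% lower). Over all tested probe sets the direction of these calls depended on the scaling, with 247 higher and 159 lower in females as deposited and 224 and 212 after centring. In males there were 291 higher and 130 lower as deposited, 194 and 217 after centring, and 166 and 156 without male control replicate 2. The unmoderated linear model gave 0 helicases in females and 1 in males. The smallest adjusted P was 0.998 in females and 0.986 in males. In 0 members were all 5 DKK1 pools above, or all 5 below, the 5 control pools. Over all tested probe sets these shares were 0.305% and 0.335% in females and 0.467% and 0.305% in males. The difference was above 0 in 18 of 39 members in females, against 53.7% of all tested probe sets, and in 23 in males, against 56.9%. After centring these counts were 16 and 21. The median over all tested probe sets was then -0.0001 in females and -0.026 in males, against 0.018 and 0.037 as deposited. The 95% interval stayed within 1.5-fold in 26 members in females and 21 in males.

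The member in females was DDX20. Its values were 8.04, 7.23, 8.12, 7.80 and 7.79 in female DKK1 pools, against 7.88, 8.34, 8.43, 8.52 and 8.0 in female control pools. In males they were 8.38, 8.13, 8.52, 8.18 and 8.16 in DKK1 pools, against 8.63, 7.53, 8.64, 8.20 and 8.42 in control pools.

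Female DKK1 replicate 2 was the lowest pool of its group by a wide margin, and so was male control replicate 2. The difference was -0.44 in females (SE 0.207, 0.739-fold, adjusted P = 0.998) and -0.01 in males (95% interval -0.44 to 0.43). Without female DKK1 replicate 2 the female difference was -0.29 and its unadjusted P was over 0.05. With all 20 arrays, the interaction, which is the female difference less the male difference, was -0.43 (adjusted P = 0.969).

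In males the 2 members were DDX54 and DDX56, nucleolar helicases homologous to yeast Dbp10 and Dbp9. DDX54 had values of 8.01, 7.65, 7.86, 7.67 and 7.63 in male DKK1 pools, against 7.50, 7.60, 7.24, 7.21 and 7.70 in male control pools. A single control pool lay within the range of the DKK1 pools. The difference was 0.31 (SE 0.136, 1.24-fold, adjusted P = 0.986), and it was 0.35 without male control replicate 2. The unadjusted P was over 0.05 after centring and after quantile normalization. In females it was -0.01 (95% interval -0.30 to 0.27).

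DDX56 had values of 6.84, 7.39, 6.90, 7.84 and 7.12 in male DKK1 pools, against 7.10, 5.88, 6.47, 6.95 and 7.08 in male control pools. Male control replicate 2 was by far the lowest of the control pools. The difference was 0.52 (SE 0.241, 1.44-fold, adjusted P = 0.986), and 0.32 without that array, where the unadjusted P was over 0.05. The same array lowered the control mean of DDX50, the paralogue of DDX21, where the difference in males was 0.42 (adjusted P = 0.986) with it and 0.23 without it.

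DDX49, the homologue of yeast Dbp8, had a low P in females. It averaged 6.27 ± 0.22 in female DKK1 and 6.61 ± 0.31 in female control embryos (SD, n = 5 each). The difference was -0.34 (SE 0.195, adjusted P = 0.998), and the interval ran between -0.75 and 0.06.

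**Figure D3:**
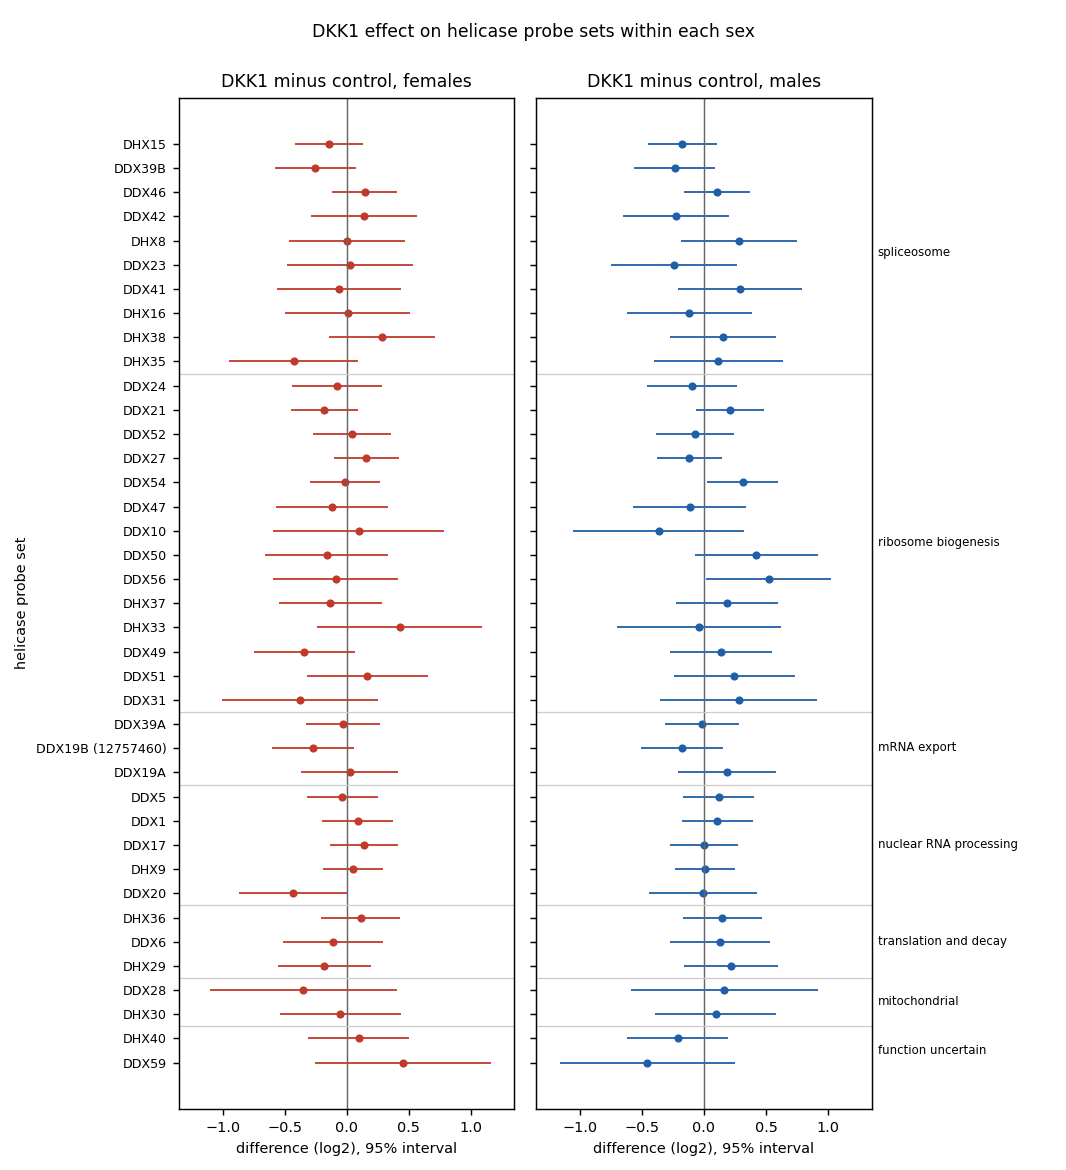
DKK1 minus control (log2) with its 95% interval for the 39 tested helicases, in females (left) and males (right), grouped by role. DDX20 in females and DDX54 and DDX56 in males have intervals that leave out 0, as unadjusted intervals.

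The signs of the DKK1 difference in females and males did not match in 23 of 39 members. In 14 (35.9%) it was below 0 in females and above 0 in males, against 27.6% of all tested probe sets, and in 9 the reverse held, against 24.4%. It was above 0 in both sexes in 9, against 29.3%, and below 0 in both in 7 (17.9%), against 18.7%. These are signs of differences that mostly did not pass a test. Among the 14 ribosome biogenesis helicases, 5 were above and 9 below 0 in females, and 8 above and 6 below 0 in males. Of all tested probe sets, 53.7% were above 0 in females and 56.9% in males. The helicase counts were the same after centring and after quantile normalization. So were the female count without female DKK1 replicate 2 and the male count without male control replicate 2. The shares of all tested probe sets were not counted in these other fits.

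The test of whether the DKK1 effect differed between the sexes gave 0 adjusted calls in the helicases (smallest adjusted P = 0.969) and 1 at an unadjusted P under 0.05, against 4.60% of all tested probe sets (1.98% higher and 2.62% lower, or 195 and 258 probe sets, which became 247 and 238 after centring). The unmoderated linear model also gave 1. The interaction is the effect in females minus the effect in males. Over the 39 members it was above 0 in 15 and below 0 in 24 as deposited, against 47.2% of all tested probe sets above 0. It was above 0 in 20 after centring and in 18 after quantile normalization. The median over all tested probe sets was -0.021 as deposited, 0.024 after centring and 0.008 after quantile normalization. The 95% interval of the interaction was within 1.5-fold in 12 members.

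That member was DDX21, a nucleolar helicase of ribosomal RNA transcription and processing. Its values were 8.81, 8.41, 8.58, 8.87 and 8.44 in female DKK1 pools, against 8.76, 9.08, 8.66, 8.80 and 8.71 in female control pools. In males they were 8.98, 8.64, 8.78, 8.96 and 8.87 in DKK1 pools, against 8.74, 8.34, 8.68, 8.78 and 8.65 in control pools.

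The groups overlapped in both sexes. The difference was -0.18 in females and 0.21 in males, and the interaction was -0.39 (SE 0.184, adjusted P = 0.969). It was -0.32 without male control replicate 2 and -0.34 without female DKK1 replicate 2, and the unadjusted P was over 0.05 in both fits. Of the 20 fits that each left out 1 array, 8 had an unadjusted P under 0.05. The P was also over 0.05 with array weights and with 1-symbol probe sets.

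DDX59, a DEAD-box protein whose loss causes orofaciodigital syndrome in humans, had the largest interaction among the 39 tested members. It averaged 6.46 ± 0.37 in female DKK1 and 6.01 ± 0.59 in female control embryos, and 6.21 ± 0.67 in male DKK1 and 6.67 ± 0.61 in male control embryos (SD, n = 5 each). The interaction was 0.91 (SE 0.478, adjusted P = 0.969), with an interval of -0.09 to 1.91. The interaction of DDX56 was -0.61 (SE 0.340, adjusted P = 0.969).

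Female and male morulae did not differ in any helicase at the adjusted threshold. In limma, 0 of 39 had an adjusted P under 0.05 (smallest adjusted P = 0.538), against 0.102% of all tested probe sets. At an unadjusted P under 0.05 there were 3 of 39, against 6.41% of all tested probe sets (3.75% higher and 2.66% lower in females), and the quantile normalization gave 4. All 3 had lower signal in females. The sex difference was below 0 in 21 of 39 members, and above 0 in 47.8% of all tested probe sets. Without male control replicate 2, the array with XIST and DDX3Y signals in the female range, 4 members had an unadjusted P under 0.05 and 28 were below 0. Over all tested probe sets that fit gave 36 adjusted calls in place of 10. At an unadjusted P under 0.05 it gave 373 higher and 429 lower, in place of 369 and 262. The median sex difference over all tested probe sets was -0.030 in that fit and -0.009 with all 20 arrays. Without female DKK1 replicate 2, 17 of 39 members were below 0, and the median over all tested probe sets was -0.003. With all 20 arrays, the interval of the sex difference was within 1.5-fold in 35 of 39. DDX10, DDX41, DHX33 and DDX59 were the exceptions.

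DDX17 (p72) had the smallest P for sex among the tested members. Its values were 9.44, 9.32, 9.30, 9.59 and 9.55 in female DKK1 and 9.25, 9.51, 9.08, 9.61 and 9.05 in female control pools, against 9.59, 9.53, 9.64, 9.63 and 9.67 in male DKK1 and 9.66, 9.88, 9.39, 9.71 and 9.42 in male control pools. Female values reached lower than any male value, but the upper female pools lay among the males. The difference between females and males was -0.24 (SE 0.0926, 0.846-fold, adjusted P = 0.538). Its unadjusted P was under 0.05 in all 32 alternative fits, without male control replicate 2 included (-0.21). Its paralogue DDX5 differed by 0.03 (95% interval -0.17 to 0.24). Below the threshold, a limma fit of all probe sets gave DDX11 a sex difference of -0.42 (SE 0.147, unadjusted P = 0.0101, adjusted P = 0.778).

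DDX46 acts on the U2 snRNP at the branch site. Its values were 9.08, 8.67, 9.37, 8.90 and 8.72 in female DKK1 and 8.70, 8.87, 8.69, 8.90 and 8.87 in female control pools, against 9.11, 9.09, 9.19, 9.15 and 9.15 in male DKK1 and 9.10, 9.01, 9.20, 9.01 and 8.86 in male control pools. The 5 male DKK1 pools were tightly grouped, and the highest value of all was a female DKK1 pool. The difference was -0.21 (SE 0.0890, 0.865-fold, adjusted P = 0.662). It was -0.21 without male control replicate 2, and -0.17 without female DKK1 replicate 2, where the unadjusted P was over 0.05.

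DDX41, a helicase of catalytic spliceosomes, was at 6.80, 5.88, 6.66, 6.11 and 6.78 in female DKK1 and 6.50, 6.72, 6.89, 6.76 and 5.69 in female control pools, against 7.0, 7.44, 6.73, 6.90 and 6.91 in male DKK1 and 7.26, 6.34, 6.61, 6.78 and 6.53 in male control pools. The lowest 3 values were all female pools, and the remaining female pools overlapped the males. The difference was -0.37 (SE 0.168, 0.774-fold, adjusted P = 0.728), -0.41 without male control replicate 2 and -0.30 without female DKK1 replicate 2. The unadjusted P was over 0.05 in the last of these fits and with replicate number as a fixed block. It was under 0.05 in 12 of the 20 fits that each left out 1 array.

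A pair of arrays was often lowest among the 20. Male control replicate 2 was lowest in 11 of 39 helicases, or 28.2%, against 23.5% of all tested probe sets. Female DKK1 replicate 2 was lowest in 9, or 23.1%, against 6.48%. The part of these arrays in the group differences is given by the values without them above. The median of the tested helicases on single arrays lay between 7.38 in a female DKK1 pool and 7.93 in a male control pool, and the groups overlapped.

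**Figure D4:**
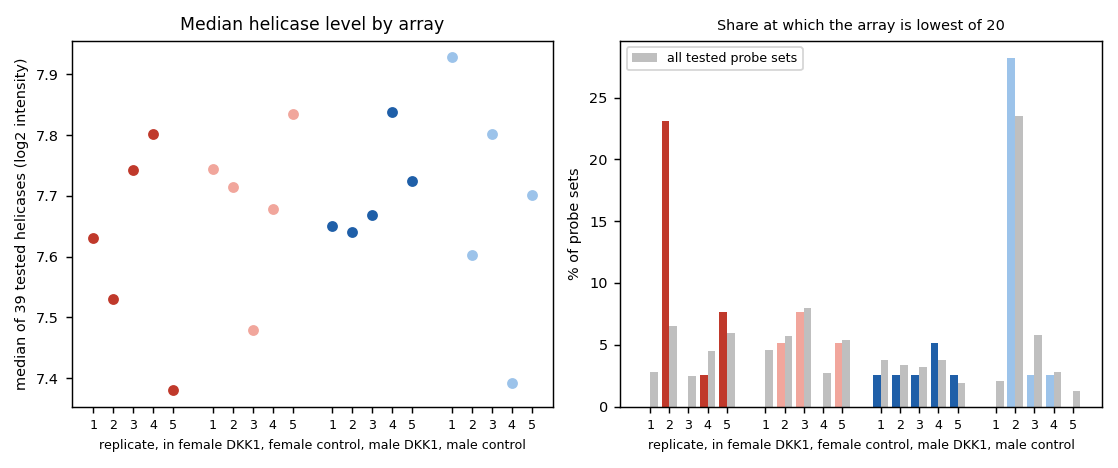
Left, median log2 intensity of the 39 tested helicases on each array. Right, the percentage of these helicases (coloured) and of all tested probe sets (grey) in which an array had the lowest of the 20 values, which reached 23.1% for female DKK1 replicate 2 and 28.2% for male control replicate 2 among the helicases.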

How the data were processed

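Amplified RNA from 20 pools of morulae was measured on whole-transcript arrays (Bovine Gene 1.0 ST, Affymetrix). The deposited values are log2 intensities, which the authors computed by RMA (robust multi-array average) in Affymetrix Expression Console, of which the versions are not given in the sources used here. No further normalization was applied. Quantile normalization by the authors makes arrays more alike, so a shift shared by most transcripts may be reduced or hidden. The deposited values still differed in distribution. On male control replicate 2 the median of the tested probe sets was 7.06 and the SD of all probe sets 2.11. On the other arrays these were 7.24 to 7.40 and 2.21 to 2.30. Symbols came from the platform annotation (18457 probe sets with 1 symbol, 688 with several, 7628 with none). Groups came from the sex and treatment on the labels.

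Differences were tested with limma 3.58.1 in R 4.3.3 (cell-means model of the 4 groups, eBayes), with no replicate term, on the 9842 probe sets with a mean of at least 5.5, and P values were adjusted (Benjamini-Hochberg) over all of them. This threshold stands in place of the authors' criterion based on negative control probes, which were not used here. The fit was tested on simulated data. Python 3.11.15, NumPy 2.4.6, pandas 2.3.3 and matplotlib 3.10.9 were used for summaries and plots.

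Members with an unadjusted P under 0.05 in any of the 5 contrasts, the 3 smallest P values of each contrast, the 10 highest and 5 lowest means and members with more than 1 probe set are named, and others as examples of a role. Members and lists were chosen with earlier results of these data known, and the counts of lowest arrays, of sign patterns and of spread by level were added after values were seen. The 32 alternatives were other thresholds, probe sets with 1 symbol, a model without moderation, a robust prior with an intensity trend, weighted arrays, the replicate number as a block, centred or quantile normalized arrays, 1 probe set per symbol and leaving out each array.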

Additional observations from a re-analysis of the deposited data

Results flagged for a closer look

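Single pools were examined only in the 24 named helicase probe sets, chosen by P value, level or more than 1 probe set. Of their 96 groups of 5 arrays, 6 held a pool whose gap to the nearest other pool exceeded 0.71 of the range of its group. Chance flags about 1 in 20 unselected groups. DDX59 was 5.82 in female DKK1 replicate 3, against 6.53 to 6.77 in the other pools of that group. DDX59 was also 7.35 in male DKK1 replicate 2, against 5.66 to 6.14 in the others. DDX5 was 9.48 in male control replicate 2, against 10.03 to 10.15. DDX25 was 5.08 in female DKK1 replicate 4, against 3.45 to 3.82, and 6.30 in male control replicate 4, against 3.93 to 4.54. DDX43 was 3.31 in female DKK1 replicate 5, against 4.11 to 4.32. DDX25 and DDX43 are below the threshold for testing.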

How the results depend on the processing

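No helicase had an adjusted P under 0.05 in any contrast under any of the 32 alternatives. At an unadjusted P under 0.05, the DKK1 count of 1 became 2 with a mean of at least 7, with the unmoderated model, with centred arrays and with quantile normalization, and 3 with no threshold. The interaction count of 1 became 0 with 1-symbol probe sets and with array weights. The count in females of 1 became 2 with a mean of at least 4.8 or no threshold and 0 with the unmoderated model or array weights. The count in males of 2 became 1 with a mean of at least 7, the unmoderated model, the intensity trend, centred arrays and quantile normalization. For DKK1, all probe sets gave 355 at an unadjusted P under 0.05, 163 with a mean of at least 7 and 1062 (436 higher, 626 lower) with no threshold. The median level of tested helicases was 7.69, and 8.56 with a mean of at least 7.

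Leaving out each array gave 0 to 3 helicases at an unadjusted P under 0.05 for DKK1, 1 to 4 for sex, 0 to 2 for the interaction, 0 to 2 in females and 1 to 2 in males. The cause was not tested beyond the arrays named in the report. Without male control replicate 2 the DKK1 count was 3 and the interaction count 0, and without female DKK1 replicate 2 the DKK1 and female counts were 0 and the sex count 1. The DKK1 count was also 0 without any 1 of male control replicates 1, 4 and 5, male DKK1 replicates 1 and 4, female control replicates 2 and 3 and female DKK1 replicate 3, and 3 without female control replicate 5. The sex count was 1 without female control replicate 1, and the unadjusted P of DDX20 in females was under 0.05 in 7 of the 20 such fits. None of the 15 differences with the smallest P values (3 for each contrast) changed sign under the alternatives. Other differences were not followed in this way.

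With replicate number as a fixed block, the counts were 1 for DKK1, 2 for sex, 1 for the interaction, 1 in females and 2 in males, and the unadjusted P of DDX39B (DKK1) and DDX41 (sex) was over 0.05. Same-numbered arrays had correlations of deviations between -0.18 and 0.14 (median 0.02), with 2 of 30 over 0.1, so the numbers were not taken as pairs. Of 20 arrays, 12 correlated best with an array of their own number, though most of the arrays compared had another number. This is a hint from the data of shared replicates, which was not tested further. The methods describe a harvest in 5 replicates without stating that array numbers stand for them. Precision is limited by 5 pools per group, and intervals are widest for the interaction.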
